A study of Arabidopsis thaliana with 25 samples.

Results

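GIGANTEA (GI), the 3 blue-light receptors FKF1, ZTL and LKP2, the coactivators LNK1 and LNK2 and the repressors CDF1, CDF2 and CDF3 connect the circadian clock of Arabidopsis thaliana to light and to flowering. These 9 genes, chosen by locus identifier out of 27444 protein-coding nuclear genes, were examined for transcript elongation factors that exceeded transcribing RNA polymerase II (RNAPII). A summit, the base at which a called ChIP-seq peak is highest, was counted for a gene when it lay inside the gene or within 500 bp of it.

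All 25 samples came from seedlings of the ecotype Col-0, with no mutant, transgene or tag named in the labels. There were 4 ChIP libraries each for SPT5, ELF7, SSRP1 and SPT16, 2 each for RNAPII phosphorylated on its carboxy-terminal domain at serine 2 (S2P) or serine 5 (S5P), and 5 inputs. The factor antibodies had been raised against purified recombinant parts of the factors. Plants were kept in long days of 16 h light at 21 °C and 8 h darkness at 18 °C. The sources used here do not give the hour of harvest, and several of the 9 genes cycle through the day. The protocol text under every sample also names 10 min at 44 °C, but no label marks a sample as heated.

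SPT5 moves along genes with RNAPII in a complex with SPT4. ELF7 belongs to the PAF1 complex, while the proteins SSRP1 and SPT16 together form FACT, which handles histones as RNAPII passes. S5P is typical of RNAPII early in transcription, S2P of productive elongation. The deposited data were 8 summit lists, one factor with one RNAPII form in each, holding 298 to 7394 summits, 30216 in all. The names of the peaks set a factor over a form, so a summit is read here as a place where the factor exceeded that form. This reading is not stated in the files. Each list pools its libraries, so no value below has a replicate error, no test over samples was possible, and the sequencing depth is unknown.

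The score of a summit is the authors' own, the −log10 of its MACS3 q-value. It is compared below only within a list, and rank means the place of a score among all summits of its list. The gene table used holds no strand, so gene ends are called left and right along the chromosome, and which of them is the start of transcription was not analysed here. Summit positions are TAIR10 coordinates.

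In the plant, GI rises late in the day and binds FKF1 and ZTL when their LOV domains absorb blue light. FKF1 with GI removes the CDF proteins in the afternoon, which frees the flowering gene CONSTANS (CO) and then FT from repression. ZTL marks the clock proteins TOC1 and PRR5 for breakdown at night, and GI stabilises ZTL. LNK1 and LNK2 work with REVEILLE transcription factors to switch on evening clock genes.

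Of the 9 genes, 7 had at least 1 summit, against 36.8% of all protein-coding nuclear genes and 43.5% of those between 2019 and 6040 bp, the length range of the 9. The 7 genes held 36 summits, 16 in S2P lists and 20 in S5P lists, and all 36 lay inside the genes. GI held 22 of them. A FACT subunit had a summit in all 7 genes, SPT5 in GI and FKF1, and ELF7 in GI. FACT was also the most widely called over all genes. Of the 10091 genes with any summit, SPT16 was called in 7952, SSRP1 in 5730, SPT5 in 4437 and ELF7 in 2372, over either form. Genes with either FACT subunit were not counted together, but they number at least the 7952 of SPT16. A FACT summit is therefore usual in a gene with any summit, as in these 7. LNK1 and LNK2 held no summit. The nearest summit that the 500 bp limit left out lay 583 bp beyond the right end of GI, in the SPT16 list over S2P, with a score of 4.36.

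**Figure D1:**
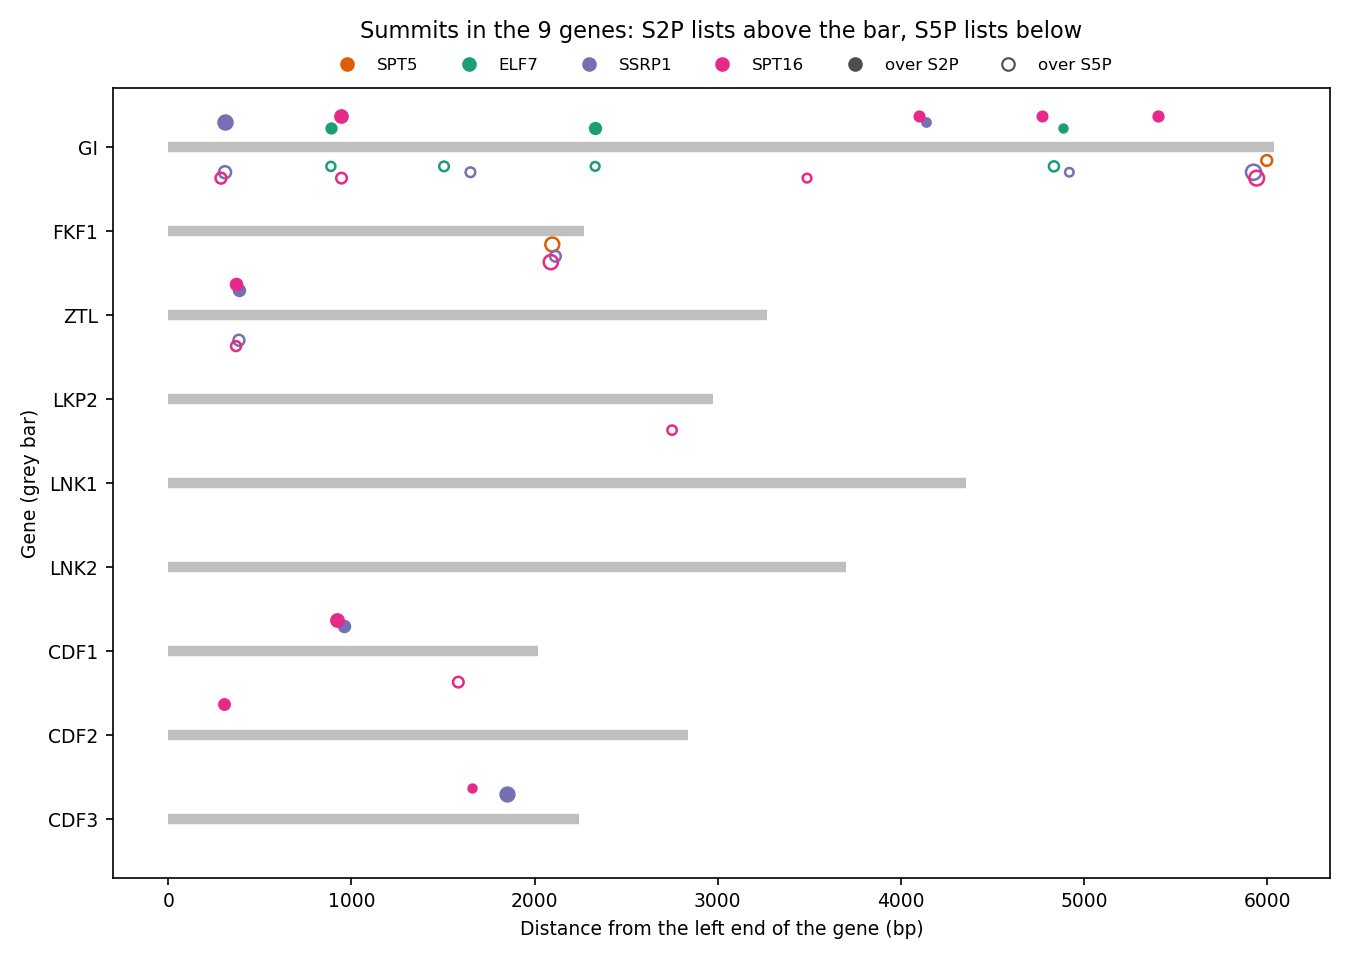
Position of every summit in the 9 genes, as the distance in bp from the left end of each gene (grey bar, drawn to its length). Filled points above a bar are S2P lists and open points below it S5P lists, colours are factors and the area grows with the score; GI carries 22 summits along its whole length, FKF1 has 3 close together over S5P, and LNK1 and LNK2 have none.

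Over S2P, SPT16 summits lay in 5 of the 9 genes (GI, ZTL, CDF1, CDF2 and CDF3), against 21.0% of all genes and 24.3% of genes in the length range. SSRP1 summits over S2P lay in 4 (GI, ZTL, CDF1 and CDF3), against 19.1% and 21.7%. Over S5P, SPT16 summits lay in 5 (GI, FKF1, ZTL, LKP2 and CDF1), against 24.2% and 28.8%, and SSRP1 summits in 3 (GI, FKF1 and ZTL), against 14.4% and 17.0%. These counts are descriptions of 9 chosen genes and were not tested. For SPT16, 3 of the 9 genes had a summit over both forms, 2 over S2P alone and 2 over S5P alone. Among the 7952 genes with SPT16 over either form, the shares were 56.1%, 16.5% and 27.4%.

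ELF7 summits lay in 1 of the 9 genes over S2P, against 8.54% of all genes and 9.80% of the length range, and in the same gene over S5P, against 2.08% and 2.58%. SPT5 summits over S5P lay in 2 of the 9, against 15.6% and 20.0%, which is near the background. No SPT5 summit over S2P lay in any of them, in a list that reached 1.05% of all genes and 1.06% of the length range.

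**Figure D2:**
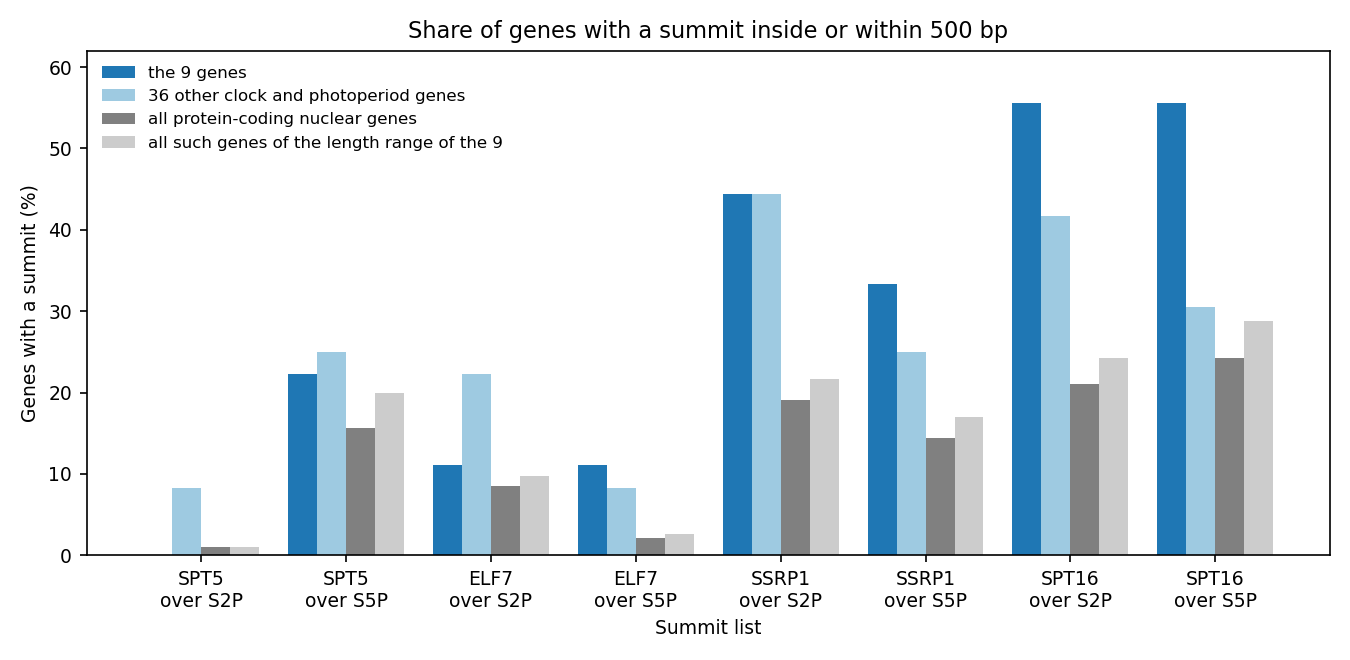
Share of genes (vertical axis, in percent) with a summit inside or within 500 bp in each of the 8 lists, for the 9 genes, 36 other clock and photoperiod genes, all 27444 protein-coding nuclear genes and the 13388 of them between 2019 and 6040 bp long. The FACT lists reach 3 to 5 of the 9 genes, and the SPT5 list over S2P reaches none.

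GI (AT1G22770, chromosome 1, 6040 bp) encodes a large plant protein that scaffolds the FKF1 and ZTL photoreceptors. It is the longest of the 9 genes and was in 7 of the 8 lists, a breadth reached by 0.772% of all genes and by 14 of 1639 genes of at least 5000 bp (0.854%). The SPT5 list over S5P counts among the 7 through a single summit, 41 bp from the right end. That summit lies 115 bp from a neighbouring gene and may belong to it. The 22 summits of GI, 9 over S2P and 13 over S5P, were matched or exceeded in 5 other genes. Genes of at least 5000 bp that held any summit had a median of 2. The 22 summits fell on 19 distinct bases, and joining those within 100 bp of the next left 10 places along the gene.

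At the right end of GI, 3 factors had a summit over S5P within 72 bp of each other. SSRP1 stood at position 8067677 with a score of 15.0, SPT16 at 8067694 with 14.0 and SPT5 at 8067749 with 6.28, at 113, 96 and 41 bp from the end. These were the highest SSRP1 and SPT16 scores in the gene over that form, ranked 116 of 4199 and 164 of 7394. The SPT5 summit ranked 660 of 2916. No S2P list had a summit within 500 bp of that end on either side, and the nearest inside the gene, of SPT16, lay 633 bp from the end with a score of 4.70.

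The right end of GI lies 73 bp from the neighbouring gene PFL (AT1G22780), which encodes a protein of the small ribosomal subunit. The same 3 summits stood 187, 170 and 115 bp from the nearest end of PFL. Which of the 2 genes the signal belongs to cannot be told apart from summit positions.

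Near the left end of GI, SSRP1 had a summit at the same base, 8062061, over both forms, 310 bp from the end. A shared base was common, found in 69.3% of the 3469 genes with SSRP1 in both lists. The SSRP1 score at this base of GI was 12.3 over S2P, ranked 1115 of 5451, and 8.56 over S5P, ranked 649 of 4199. SPT16 had a summit 22 bp away over S5P (score 6.42, 288 bp from the end) and none there over S2P. The strongest SPT16 summit over S2P instead lay 944 bp from the left end, with a score of 8.82, and SPT16 over S5P had one 946 bp from that end, with 5.92. SSRP1 had no summit at that second place over either form. The 2 FACT subunits therefore shared the outer place over S5P, and SPT16 had the inner one over both forms.

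ELF7, of the PAF1 complex, had all 7 of its GI summits in the interior of the gene, at 888 to 2331 bp from the nearer end. Those 888 bp (scores 4.61 over S2P and 3.64 over S5P) and 2331 bp (6.24 and 3.17) from the left end stood at the same bases in both lists. At least 1 shared base occurred in 61.8% of the 542 genes with ELF7 in both lists. Over S5P ELF7 also had summits 1506 bp from the left end, with a score of 4.46, and 1203 bp from the right end, with 5.15, its highest in the gene. Over S2P a summit of 2.14 stood 1155 bp from the right end. In the whole ELF7 lists, 81.5% of summits for S2P and 78.2% for S5P were interior in this sense, inside a gene at 500 bp or more from its ends.

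The remaining GI summits were of FACT and had scores from 2.53 to 4.47. Between 1119 and 1269 bp from the right end lay SPT16 over S2P (4.31) and SSRP1 over S5P (2.90), among the ELF7 summits of both forms. SPT16 (4.43) and SSRP1 (2.53) over S2P lay 38 bp apart, 1939 and 1901 bp from the right end. SSRP1 over S5P stood alone 1650 bp from the left end (4.47) and SPT16 over S5P 3488 bp from it (3.14). Of the 10 places, 4 held summits of both forms, 4 of S5P lists alone and 2 of S2P lists alone.

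**Figure D3:**
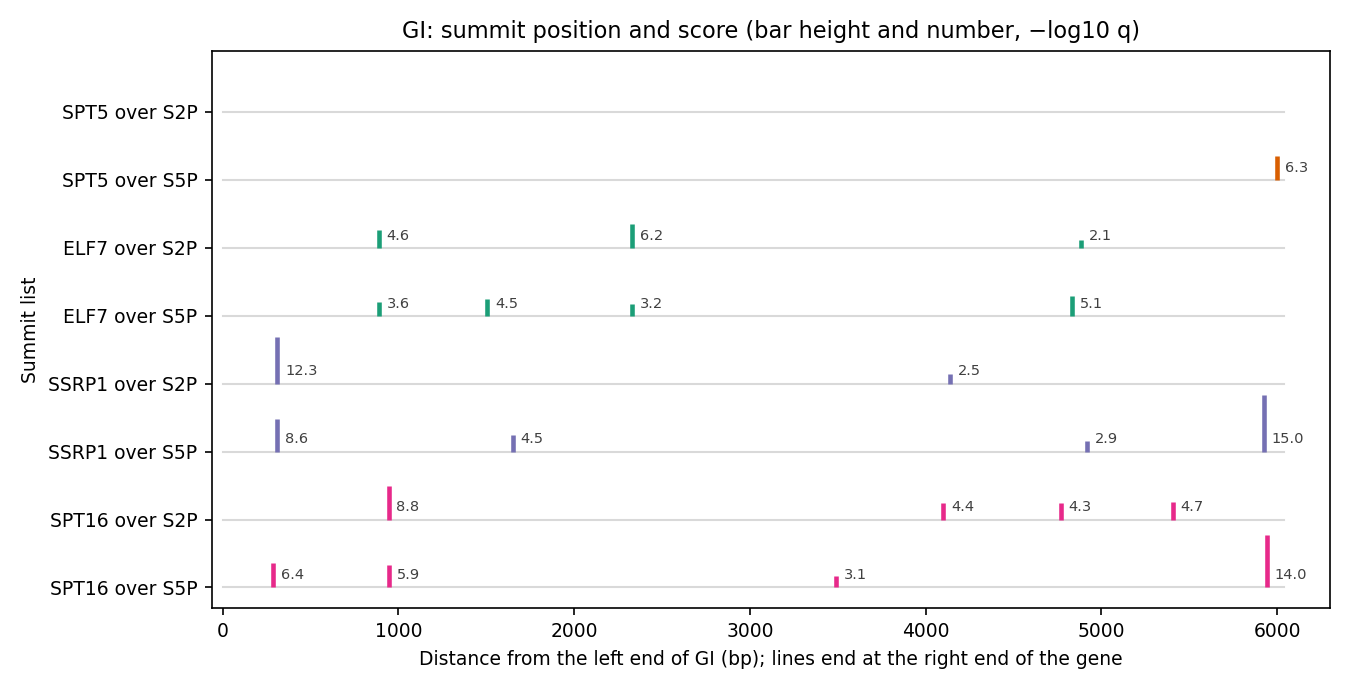
Summits of the 8 lists along GI, with the distance from the left end of the gene in bp on the horizontal axis and a row for each list; bar height and the number beside it give the score (−log10 q). In the SSRP1 and SPT16 rows over S5P, the tallest bars (15.0 and 14.0) stand at the right end, with SPT5 (6.28) beside them. Heights are to be compared only within a row.

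FKF1 (AT1G68050, chromosome 1, 2269 bp) encodes a photoreceptor that is also the F-box subunit of a ubiquitin ligase. It had 3 summits, all over S5P and all within 25 bp near its right end. SPT16 stood at 25510728 with a score of 12.8, SPT5 at 25510736 with 12.2 and SSRP1 at 25510753 with 6.10, at 179, 171 and 154 bp from the end. SPT5 ranked 30 of 2916, the highest rank of any summit in the 9 genes. SPT16 ranked 249 of 7394 and SSRP1 1436 of 4199.

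FKF1 had no ELF7 summit and none over S2P. How common that was differed by factor. Of 4292 genes with SPT5 over S5P, 96.7% lacked it over S2P, so that FKF1 was like most of them. The share was 32.9% of 6642 genes for SPT16 and 12.5% of 3963 genes for SSRP1. The S2P and S5P lists of a factor are read as sharing the libraries of that factor and are not independent. The right end of FKF1 overlaps the gene MAP70-1 (AT1G68060), for a microtubule-associated protein, by 21 bp. The 3 summits lay outside MAP70-1, 134 to 159 bp from its nearest end, so they cannot be told apart from signal at that gene.

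FKF1 and the right end of GI thus showed the same 3 factors over the same form within 25 and 72 bp, the lists over S5P being read as sharing the S5P libraries. Such closeness was common: all 3 had a summit over S5P in 1126 genes, and in 452 of them (40.1%) the closest 3 summits lay within 100 bp. The order of scores differed between the 2 genes. In GI, SSRP1 and SPT16 ranked in the top 2.76% and 2.22% of their lists and SPT5 in the top 22.6%, whereas in FKF1 SPT5 ranked in the top 1.03%, SPT16 in the top 3.37% and SSRP1 in the top 34.2%.

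ZTL (AT5G57360, chromosome 5, 3271 bp), the F-box photoreceptor of TOC1 and PRR5, had FACT alone, at a single place and over both forms. SPT16 stood at 23241690 over both, 370 bp from the left end, with scores of 6.83 over S2P and 4.87 over S5P. SSRP1 stood 16 bp further in, at 23241706 over both, with 6.47 and 6.53. A base shared by both forms was common. It occurred in 65.0% of the 4460 genes with SPT16 in both lists and in 69.3% of the 3469 with SSRP1. All 4 ranks of the ZTL summits lay between the top 29.5% and the top 51.6% of their lists, so these were summits of middling score. At scores of at least 5, the SPT16 summit over S5P was lost.

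LKP2 (AT2G18915, chromosome 2, 2972 bp), the photoreceptor related to both, had a single summit. It was of SPT16 over S5P at 8197263, with a score of 3.995, 220 bp from the right end, and ranked 4675 of 7394. That position also lies inside AT2G18917, annotated as a long noncoding RNA gene that overlaps LKP2 by 370 bp, 149 bp from its nearest end. The 3 related receptor genes had 3 different patterns: SPT5 with FACT at the right end over S5P in FKF1, FACT near the left end over both forms in ZTL, and SPT16 alone over S5P in LKP2, a call lost at scores of at least 5. Each exact set of lists was held by few genes: 0.820% of all genes for FKF1, 3.81% for ZTL and 2.51% for LKP2. Different sets in 3 genes thus need not be particular to the receptors, and this was not tested.

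**Figure D4:**
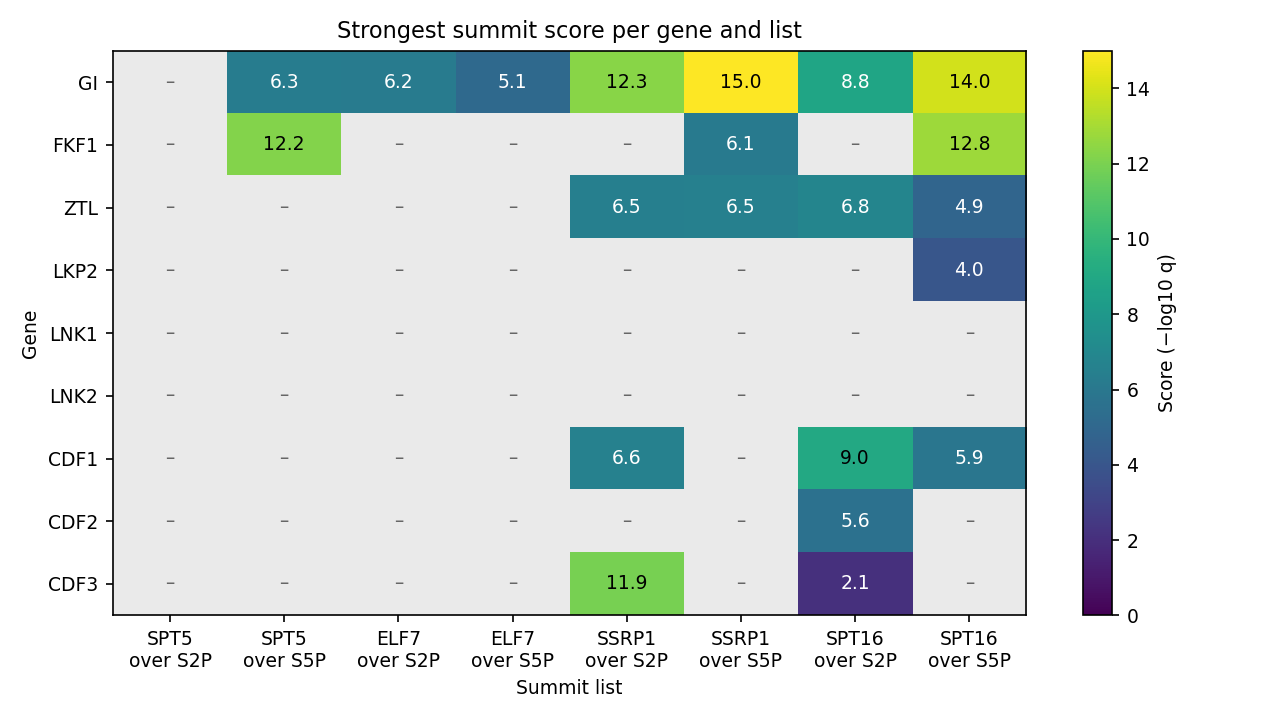
Strongest summit score (−log10 q, colour and number) of each of the 9 genes in each of the 8 lists, with a dash where a list has no summit. GI fills 7 of the 8 columns, FKF1 is filled over S5P alone, and CDF2 and CDF3 over S2P alone.

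The CDF genes encode DOF-type repressors of CO and FT, the proteins that FKF1 and GI remove, and the summits in these genes were of FACT alone. CDF1 (AT5G62430, chromosome 5, 2019 bp) had SPT16 at 25070013 with a score of 9.03 and SSRP1 at 25070055 with 6.62, both over S2P and 42 bp apart near the middle of the gene. Over S5P it had SPT16 at 25070677 with 5.91, 434 bp from the right end, and no SSRP1. The SPT16 summits over the 2 forms were 664 bp apart. In 93.0% of the 4460 genes with SPT16 in both lists, the smallest gap was no larger than that, and the median gap was 0 bp.

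CDF2 (AT5G39660, chromosome 5, 2840 bp) had a single summit, of SPT16 over S2P at 15879003, with a score of 5.58, 305 bp from the left end and ranked 3425 of 6578. CDF3 (AT3G47500, chromosome 3, 2242 bp) had SSRP1 over S2P at 17505731, with a score of 11.9, 393 bp from the right end and ranked 1192 of 5451. Its SPT16 summit over S2P, 189 bp away, scored 2.08 and ranked 6495 of 6578, close to the lowest score of the list. The 2 subunits of FACT thus stood far apart in rank in CDF3, in the top 21.9% for SSRP1 and the top 98.7% for SPT16.

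CDF2 and CDF3 had no summit over S5P, and FKF1 and LKP2 had none over S2P. CDF2 and LKP2 each rest on a single summit. Among all genes, 22.7% of those with SPT16 over S2P lacked it over S5P, as did 33.7% of those with SSRP1. In the other direction, 32.9% of genes with SPT16 over S5P lacked it over S2P. That share was 12.5% for SSRP1 and 96.7% for SPT5. Genes with summits over only a single form, across all factors, were not counted, so no contrast between these genes is drawn.

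LNK1 (AT5G64170, chromosome 5, 4358 bp) and LNK2 (AT3G54500, chromosome 3, 3701 bp) had no summit in any list, also with a window of 1000 bp. Both are longer than every other gene of the 9 except GI. A list without a summit says that the factor was not called above RNAPII there at the depth of these libraries, not that the factor or RNAPII was absent.

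By distance, the FACT summits of the 9 genes fell into several ranges. Of 27 SSRP1 and SPT16 summits, 12 lay 500 bp or more from the nearer gene end, a range that held 35.1% to 53.6% of the summits of the 4 FACT lists. Most of the 12 were in GI, the longest of the 9 genes, and the rest in CDF1 and CDF3. A further 8 lay 300 to 400 bp from the nearer end, in GI, ZTL, CDF2 and CDF3, where 11.6% to 18.0% of the same lists lay. In GI and ZTL each of these bases was counted in both the S2P and the S5P list of its factor. Those lists are not independent, so the 8 are not separate places. Another 4 lay inside the gene less than 200 bp from an end, all over S5P, in GI and FKF1. They are an SSRP1 and SPT16 pair 17 bp apart in GI and a pair 25 bp apart in FKF1. The 4 are thus not separate places, and both pairs lie beside a neighbouring gene. In the whole lists the range under 200 bp held 8.55% of SSRP1 and 16.7% of SPT16 summits over S5P, against 3.25% and 3.91% over S2P. Both SPT5 summits lay in it too, as did 42.6% of all SPT5 summits over S5P.

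**Figure D5:**
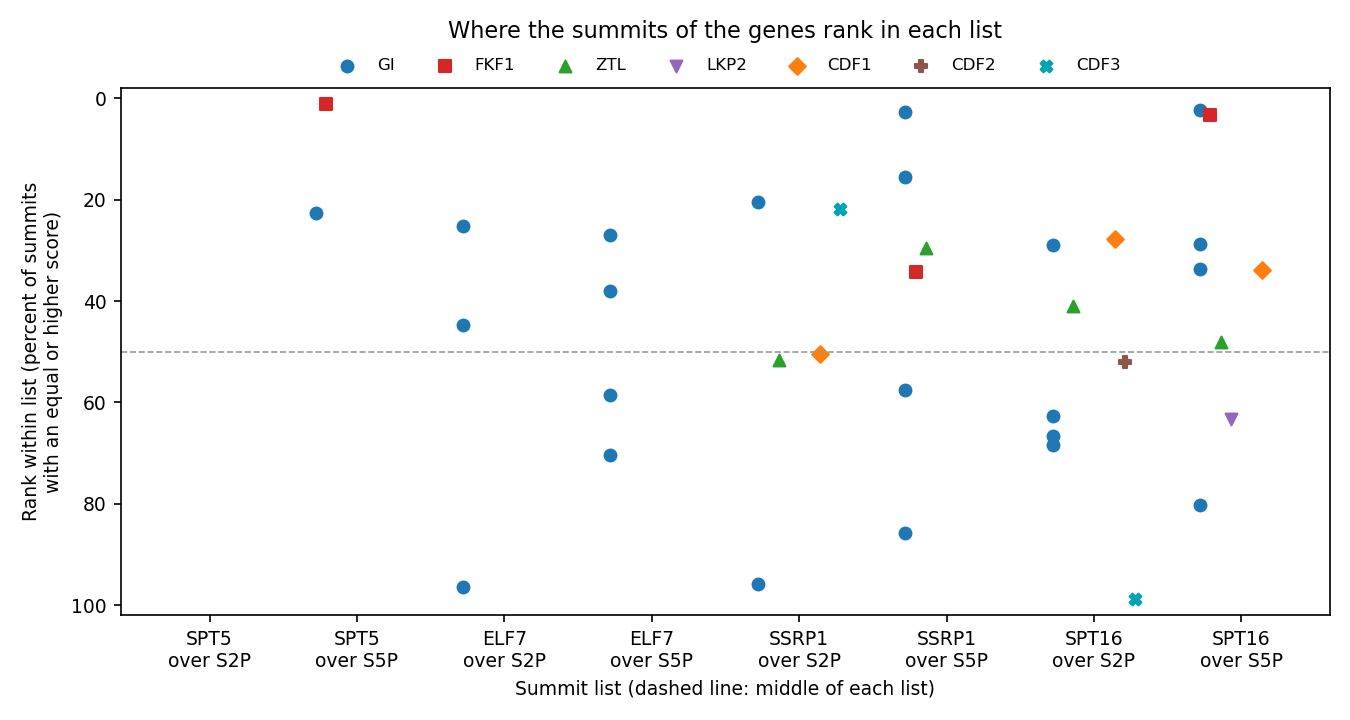
Rank of every summit of the 7 genes within its list, as the percent of summits with an equal or higher score (vertical axis, strongest at the top), for the 8 lists. FKF1 and GI reach the top 5% of the SPT16 list over S5P, FKF1 that of SPT5 and GI that of SSRP1 over S5P, and no summit does so in an S2P list.

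Set beside 36 further genes of the clock and the photoperiod pathway, the 9 genes held the highest scores in every S5P list and in no S2P list. Over S5P, FKF1 had the highest SPT5 score of the 45 genes, ahead of the clock repressor gene TOC1 (7.59). GI had the highest ELF7 score, 5.15 against 5.08 in PRR5, and the highest SSRP1 score, 15.0 against 13.6 in CHE, a regulator of CCA1. For SPT16 over S5P, GI and FKF1 came before PRR5 (10.8). Over S2P, CHE led for SSRP1 (44.3) and ELF7 (8.78), and ASK1, which encodes a partner of F-box proteins, led for SPT16 (19.1), where the highest of the 9 genes, CDF1, came 7th. No test was made of these orders. The leading SSRP1 and SPT16 scores of GI over S5P are those at its right end, next to PFL; its next scores were 8.56, below CHE, and 6.42, below PRR5. The FKF1 scores are likewise those next to MAP70-1.

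Of those 36 genes, 20 had a summit in at least 1 list and 16 in none, while 36.8% of all genes had at least 1. SSRP1 over S2P lay in 16 of them (44.4%, against 19.1% of all genes) and SPT16 over S2P in 15 (41.7% against 21.0%). SPT16 over S5P lay in 11 (30.6% against 24.2%). SSRP1 and SPT5 over S5P lay in 9 each (25%, against 14.4% and 15.6%). ELF7 over S2P lay in 8 (22.2% against 8.54%). ELF7 over S5P and SPT5 over S2P lay in 3 each (8.33%, against 2.08% and 1.05%). These counts were not tested. PRR5 and CHE were in all 8 lists, TOC1 in 7, PIF4, a growth regulator gene, in 6, and PRR7, FBH1, an activator gene of CO, and the blue-light receptor gene CRY2 in 5. Summits in all 8 lists occurred in 0.204% of all genes. PRR5 had the highest SPT5 score over S2P (7.76) of the 45 genes, a list without GI. CO, FT and its relative TSF, the genes downstream of the CDF repressors, had no summit, nor had the morning clock genes CCA1 and LHY, which repress GI. They are only some of the 16 without one and were named after their values were seen. Lacking a summit was also usual, since 36.8% of all genes had any.

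Genes with summits in exactly the same lists were ordered by how close their strongest scores were, as the mean absolute log2 difference over those lists. For GI, over 7 lists and 94 candidates, the closest were THIC (AT2G29630, 0.27), of thiamine synthesis, AT2G43030 (0.32) and RAN2 (AT5G20020, 0.32), which encodes a small GTPase. For FKF1, over 3 lists and 224 candidates, they were hemf2 (AT4G03205, 0.12) and the neighbours SHM3 (AT4G32520) and AT4G32530, both at 0.14 because they share the same summits. KUP10 (AT1G31120, 0.06), AT2G44730 (0.09) and AT5G13980 (0.09) were closest to ZTL among 1044 candidates over 4 lists. For CDF1, over 3 lists and 325 candidates, the closest were LOX6 (AT1G67560, 0.07), AT2G33180 (0.09) and AT5G23680 (0.10).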

How the data were processed

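The authors deposited 8 lists of peak summits, and the 25 samples were grouped by their labels. Per the submitters' processing notes, the genome was TAIR10 and the tools were MACS3, deepTools, Bowtie2, Trimmomatic 0.39 and SAMtools 1.16.1. Other versions, the MACS3 settings and how libraries were pooled: not given in the sources used here. Scores were deposited by the authors as −log10 q from MACS3 (q-values on a log scale), at least 2.00 in all lists. Depth per sample is unknown, so no interval is given.

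Genes came from an NCBI RefSeq table of assembly TAIR10.1, used for names, neighbours and distances. With it, 87.4% of summits lay inside protein-coding genes, and 77.8% and 77.7% after shifts of 500 bp either way. All 9 locus identifiers matched. Of 36 comparison identifiers, 4 carry no name in the table and are counted but not named. Promoter motifs had been planned but no sequence was given, so none is printed. The table has no strand or exons.

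A summit was assigned to every gene whose body or 500 bp flank held it (Python 3.11.15, pandas 2.3.3, NumPy 2.4.6); on simulated summits, 200 of 200 were recovered among 27444 genes. The named genes were the 9, comparison genes in at least 5 lists or with the highest score of a list, and up to 3 genes closest in score for each of the 9 with at least 3 lists; CO, FT, TSF, CCA1 and LHY were named after their values were seen. The members and lists were chosen with earlier results of these data known. The length range, the places joined within 100 bp and the distance ranges were set after the data were seen. No set test was made. Alternatives were windows of 0, 250 and 1000 bp, scores of at least 5 and 10, and assignment to the nearest gene alone.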

Additional observations from a re-analysis of the deposited data

How the results depend on the processing

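The counts of genes per list, and of lists per gene, were the same with summits inside the gene alone, with windows of 250 and 1000 bp and with assignment to the nearest gene. All 36 summits lay inside the genes, so of these settings only the window of 1000 bp could have changed a count. The agreement does not bear on whether a signal belongs to a neighbour such as PFL or MAP70-1. The counts depended on the score, since a higher minimum leaves fewer summits. At scores of at least 5, SPT16 over S5P had 3 genes in place of 5, against 12.9% of all genes, and the counts of the other 7 lists stayed within 1.5 times. By gene, ZTL went from 4 lists to 3, LKP2 from 1 to 0 and CDF3 from 2 to 1. At scores of at least 10 there was 1 gene for SPT5 over S5P (0.488% of all genes), 0 for ELF7 over S2P (0.907%), 0 for ELF7 over S5P (0.124%), 2 for SSRP1 over S2P (6.15%), 1 for SSRP1 over S5P (1.59%), 0 for SPT16 over S2P (5.95%) and 2 for SPT16 over S5P (2.39%). By gene, GI was then in 3 lists, FKF1 in 2 and CDF3 in 1, and the others in 0. No paired analysis was possible because the lists hold no column per library, which also leaves no library to leave out. Depth limits which summits were called, and it is unknown.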
